A study of Mus musculus with 11 samples.

Results

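GSK2879552 (GSK below) is a small-molecule inhibitor of the histone demethylase LSD1, and the contrast described here is its effect on gene expression in the retina of rd10 mice. The 3 libraries whose column names in the deposited count table end in rd10 and GSK were set against the 3 whose names end in rd10 and control, 6 of the 11 libraries in the series, and 17099 genes passed a filter on low counts and were tested. Both groups were of the strain labelled B6.CXB1-Pde6brd10/Jrd10, so every animal of the contrast, saline-treated animals included, carried the rd10 allele of Pde6b. One group received daily intraperitoneal saline from postnatal day 9 to day 24, and the other received GSK at 4.2 mg/kg over the same days. The series also holds retinas of C57Bl/6J wild-type mice on that schedule, 2 given saline and 3 given GSK, which serve here as a reference level and for the same drug contrast without the rd10 allele. Each library was made from polyA RNA of the right retina of 1 animal. The labels give neither sex nor litter. The rd10 lesion is a coding change that counts per gene cannot show, so expression of Pde6b is no check of the genotype labels.

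In rods, light acts through the G protein transducin on a cGMP phosphodiesterase, and the fall in cGMP closes the cation channels of the outer segment. The rd10 allele impairs the catalytic beta subunit of that phosphodiesterase, and the rods of these mice die after eye opening while Müller glia and microglia respond. LSD1, encoded by Kdm1a, removes methyl groups from lysine 4 of histone H3 within CoREST and HDAC complexes that keep genes repressed, and LSD1 takes part in rod differentiation. A whole retina pools all of these cells, and in such bulk samples fewer cells of a type and less RNA per cell cannot be told apart.

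The libraries held between 19657030 and 28053367 counts, and genes of rods, bipolar cells and Müller glia were detected in all 11 of them. On the first principal component of expression, which carried 61.0% of the variance, the rd10 GSK libraries did not lie together: replicates 1, 2 and 3 stood at 52.0, 23.1 and -10.4, against 52.8, 64.6 and 62.6 for rd10 saline and between -50.6 and -47.2 for wild type. On the second component (12.6%) all 3 rd10 GSK libraries, at -27.4, -43.8 and -26.6, lay below the other 8. Transcripts of 16 lens genes summed to 74.8, 8617 and 46.8 CPM in rd10 GSK and 108, 129.9 and 107 CPM in rd10 saline, so of these 6 libraries rd10 GSK replicate 2 carried most lens RNA, and among wild-type libraries saline replicate 2 did (846 CPM). Xist, which females express from the inactive X chromosome, stood at 986, 0.0461 and 1335 CPM in rd10 saline and 0.0771, 780.5 and 0.171 CPM in rd10 GSK, so 2 saline libraries and 1 GSK library carried it. CPM are counts scaled to a common library size with edgeR's TMM method, and 3 values in a row are always replicates 1, 2 and 3.

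A gene counts as risen or fallen where the Benjamini-Hochberg adjusted p of edgeR's quasi-likelihood test was under 0.05, and changes are log2 fold changes of GSK over saline in rd10 with their standard error. By that rule 5621 genes changed (32.9% of those tested), 3014 upward (17.6%) and 2607 downward (15.2%). Counts of list members below are to be read against these shares. Most changes were small: the median rise was 0.46 and the median fall -0.38. At least 2-fold rises were seen for 553 genes (3.23%) and falls of that size for 270 (1.58%). In 3839 genes (22.5%) all 3 GSK libraries lay above all 3 saline libraries, and in 3462 genes (20.2%) all lay below. They lay above each of the 8 other libraries of the series in 4.47% of genes and below each of them in 4.75%. Protein-coding genes made up 2730 of the rises and 2508 of the falls. When only the 6 rd10 libraries were fitted 1951 genes rose and 1637 fell, and without the 2 lens-bearing libraries (rd10 GSK replicate 2 and wild-type saline replicate 2) 2223 rose and 1582 fell.

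The 3 GSK retinas differed in how far they had moved, and not in the same order in every list. Among the genes that rose, GSK replicate 1 was the lowest of the 3 GSK libraries in 60.1% and replicate 3 the highest in 56.5%, against 38.2% and 37.8% of all genes tested. Among those that fell, replicate 1 was the highest in 47.0% and replicate 3 the lowest in 43.2%, against 37.7% and 36.7% of all genes tested. The median SD of log2(CPM + 0.5) over genes was 0.125 in rd10 GSK, 0.113 in rd10 saline and 0.0784 in wild-type GSK.

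Scaling bears on small changes. When library factors were taken from genes of ganglion, amacrine and bipolar cells (inner retina scaling) in place of TMM, the median of all genes moved from 0.01 to 0.28, and 93.3% of the called genes rose in place of 53.6% (46.8% with upper quartile scaling). Values on that scale, given below for some lists and some genes, are to be read against 0.28, and the scale centres those 3 cell types by construction. For the small falls of Six6, Cplx3, Eno1 and Ldhb no value on that scale is given, so their dependence on scaling is not shown.

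Kdm1a stood at 88.9, 86.3 and 83.2 CPM in saline and 93.6, 94.6 and 104 CPM in GSK. The groups did not overlap, but the rise was small (0.18 ± 0.06, edgeR adjusted p = 0.0281) and was lost in 5 of 22 alternative analyses, among them without rd10 saline replicate 3 and without rd10 GSK replicate 3. Hdac1, a histone deacetylase of the CoREST, NuRD and SIN3 complexes, was at 43.0, 44.5 and 44.6 CPM in saline and 40.7, 35.8 and 33.5 CPM in GSK. It fell by 0.26 ± 0.07 on the log2 scale (adjusted p = 0.0123), a call that ended without rd10 GSK replicate 2 and under inner retina scaling, where the value was 0.01. Pde6b stood at 332, 333 and 422 CPM in saline and 991, 1381 and 1757 CPM in GSK, every GSK library being above every saline library (1.93 ± 0.18, adjusted p = 6.97e-05). Its mean in wild-type saline was 2266 CPM.

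Of 21 tested genes of the LSD1, CoREST and HDAC complexes 8 rose and 1 fell, with a median of 0.04 beside 0.01 for all genes. The largest rise was that of Insm1, a zinc-finger repressor that recruits LSD1 in neuroendocrine and developing neural cells, at 18.2, 16.5 and 20.9 CPM in saline and 22.5, 32.2 and 49.3 CPM in GSK (0.90 ± 0.24, adjusted p = 0.0198). GSK replicate 3 was the highest, and the call was lost without rd10 saline replicate 1 or 2. The NuRD subunit Mta2 rose by 0.74 ± 0.06, from 95.4, 99.0 and 99.9 CPM to 155, 158 and 179 CPM. Sin3a, the scaffold of the SIN3 deacetylase complex (0.45 ± 0.06), the CoREST paralog Rcor3 (0.39 ± 0.07) and the second LSD1-type demethylase Kdm1b (0.25 ± 0.07) rose too. Gfi1, which tethers LSD1 to DNA in blood and hair cells, did not pass the filter on low counts. When only the rd10 libraries were fitted 3 of the 21 rose, 4 did without the lens-bearing libraries, and 16 did with inner retina scaling.

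Among 24 enzymes that add or remove histone lysine methylation 7 rose and the other 17 were not called, where 17.6% of all tested genes rose. The median was 0.09, and inner retina scaling gave 16 rises. Kdm4c, a demethylase of other lysines of the same histone, went from 93.1, 84.9 and 104 CPM to 133, 152 and 160.3 CPM (0.66 ± 0.08, adjusted p = 0.000141). Kdm5b, which like LSD1 acts on lysine 4, rose by 0.64 ± 0.10. Dot1l, a methyltransferase of the histone core, stood at 108, 98.6 and 121 CPM in saline and 163, 157 and 144 CPM in GSK, above all other libraries of the series in each GSK retina (0.51 ± 0.07).

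Rod phototransduction genes were higher in every GSK retina than in every saline retina. All 10 tested members rose, with a median of 1.70. Gnat1, the alpha subunit of rod transducin, was at 1711, 1772 and 2158 CPM in saline and 4852, 7870.4 and 9381 CPM in GSK (1.97 ± 0.21, edgeR adjusted p = 0.000145). The GSK libraries differed from each other by more than the saline libraries did, and none reached the wild-type saline mean of 13182 CPM. Slc24a1, the sodium, calcium and potassium exchanger of the rod outer segment, rose by 1.94 ± 0.21. The phosphodiesterase subunits Pde6a (1.70 ± 0.17) and Pde6g (1.70 ± 0.19) and the cGMP-gated channel subunits Cnga1 (1.56 ± 0.20) and Cngb1 (1.40 ± 0.20) rose as well. As a share of the wild-type saline mean, the median member stood at 16.3%, 16.7% and 19.5% in the saline retinas and at 38.9%, 58.3% and 75.7% in the GSK retinas. GSK replicate 1 was thus the farthest from wild type and replicate 3 the nearest.

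**Figure D1:**
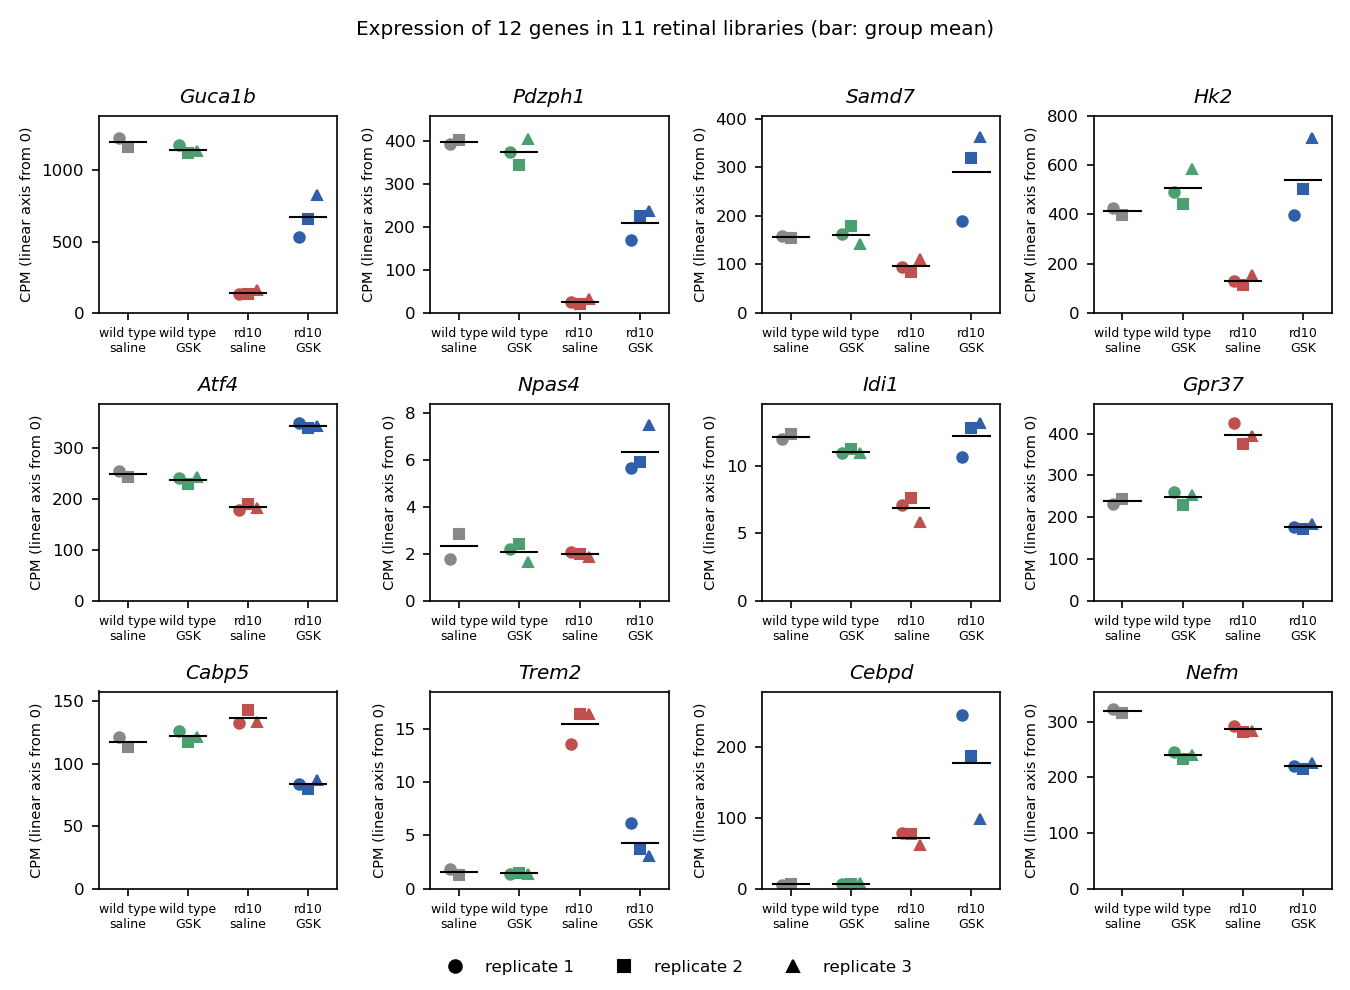
Expression in CPM (linear axes from 0) of 12 genes in each of the 11 retinas, by group, with replicates 1, 2 and 3 as circles, squares and triangles and a bar at the group mean. In Guca1b and Pdzph1 the 3 rd10 GSK retinas lie between rd10 saline and wild type, in Atf4, Npas4 and Samd7 above every other retina, in Trem2 between the rd10 saline and wild-type levels, and in Nefm both GSK groups lie below the saline group of their genotype.

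Genes that end the light response and restore cGMP behaved alike, all 12 rising (median 1.24). Guca1b, which encodes the guanylate cyclase activator GCAP2, went from 132, 131 and 158 CPM in saline to 530, 657 and 829.9 CPM in GSK (2.26 ± 0.14, adjusted p = 4.50e-06). Pdc, the transducin-binding phosducin, went from 398, 371 and 465 CPM to 1116, 1893 and 2692 CPM (2.21 ± 0.27). Guca1a, the sister activator GCAP1, was at 115, 136 and 134 CPM in saline and 219, 378 and 571 CPM in GSK (edgeR adjusted p = 0.00385). The smallest rise of the list was that of Sag, rod arrestin, at 0.71 ± 0.16. In all of these the groups did not overlap, and in Guca1b the saline retinas stood at 11.0, 10.9 and 13.2 percent of the wild-type saline mean and the GSK retinas at 44.3, 54.9 and 69.4 percent.

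All 17 genes of outer segment discs, matrix and retinoid handling rose (median 1.58). Prph2, the tetraspanin that shapes disc rims, stood at 876, 915 and 1024 CPM in saline and 2403, 3631 and 4349.7 CPM in GSK (1.88 ± 0.18), and its partner Rom1 rose by 1.66 ± 0.18. Impg1, a proteoglycan of the matrix around photoreceptors, went from 163, 127 and 166 CPM to 418, 512 and 551 CPM (1.70 ± 0.11, adjusted p = 4.25e-06). In Rbp3 and Pcare the GSK libraries lay above all 8 others, wild type included. The retinoid carrier Rbp3 was at 2998, 2618 and 3063 CPM in saline and 8248, 9442 and 9003 CPM in GSK (1.62 ± 0.08), with a wild-type saline mean of 7563 CPM. Pcare, an actin regulator at the base of the outer segment, was at 291, 244 and 289 CPM and 792, 691 and 622 CPM (1.35 ± 0.09). In Pcare replicate 1 was the highest GSK library, unlike in most rod genes. Nxnl1, whose short product is the rod-derived cone viability factor, rose by 1.48 ± 0.20 and its paralog Nxnl2 by 1.75 ± 0.14.

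Of 13 photoreceptor transcription factors 10 rose and 1 fell (median 0.76). Nrl, the leucine zipper factor that specifies rods, stood at 211, 214 and 261 CPM in saline and 588, 1014 and 1405 CPM in GSK (2.13 ± 0.27, adjusted p = 0.000557). Esrrb, an orphan nuclear receptor needed for rod survival, went from 96.1, 77.1 and 106 CPM to 284, 428 and 556 CPM (2.18 ± 0.22). Nr2e3, the nuclear receptor that represses cone genes in rods, rose by 1.37 ± 0.31, a call lost when only the rd10 libraries were fitted. Samd7, a Polycomb-associated silencer in rods, was at 95.5, 84.5 and 112 CPM in saline and 191, 320.1 and 363 CPM in GSK, against a wild-type saline mean of 156 CPM (1.58 ± 0.22). All 3 GSK retinas lay above each of the other 8. Crx, the homeobox activator of rods and cones, rose by 1.06 ± 0.13, while the cone receptor Rxrg was at 11.2, 10.9 and 10.1 CPM in saline and 9.37, 10.3 and 10.4 CPM in GSK, which overlapped (edgeR adjusted p = 0.434). Six6, a homeobox gene of the inner retina as well, fell by 0.26 ± 0.07 on the log2 scale with TMM, a change small enough for the scaling to matter.

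Promoter sequences of rising genes were read from RefSeq (build GRCm38.p6) as the 250 bases before the first listed start, which 81.4% of 14335 protein-coding tested genes had. TAATCC, the core letters bound by CRX and OTX2, was found on either strand in 5.91% of the promoters of risen genes and in 5.25% of all promoters matched. TGCTGA, letters bound by NRL and other MAF factors, was found in 11.7% and 13%, the AP-1 letters TGACTCA in 2.57% and 2.97%, the STAT letters TTCCNGGAA in 1.04% and 0.951%, and the E-box CANNTG in 55.8% and 57.6%. Matches of different motifs could overlap. No test was made. For the genes that rose by 2-fold or more and for all fallen genes 77.6% and 79.8% had a promoter in the table, under the 80% set for such a check, so it is void for both sets and no share is given. The promoters of the 4 named risen genes with TAATCC and the largest changes are shown because all 4 genes are discussed here, with TAATCC or its reverse complement in capitals, 5′ to 3′ on the strand of the gene. They lie at chr12:104998678-104998927 (minus strand), chr13:51170775-51171024 (plus), chr17:47400607-47400856 (minus) and chr3:30746043-30746292 (plus) of GRCm38.p6.

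Syne3: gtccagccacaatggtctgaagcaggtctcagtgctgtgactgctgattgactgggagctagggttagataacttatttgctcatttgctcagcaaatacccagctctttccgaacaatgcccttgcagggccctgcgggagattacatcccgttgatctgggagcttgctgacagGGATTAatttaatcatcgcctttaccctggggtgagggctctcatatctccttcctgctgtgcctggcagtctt

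Nxnl2: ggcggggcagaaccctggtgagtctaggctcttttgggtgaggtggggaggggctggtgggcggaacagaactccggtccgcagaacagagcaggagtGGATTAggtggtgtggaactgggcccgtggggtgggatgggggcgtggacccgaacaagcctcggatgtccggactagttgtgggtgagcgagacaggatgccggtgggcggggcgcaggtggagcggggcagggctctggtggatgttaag

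Guca1a: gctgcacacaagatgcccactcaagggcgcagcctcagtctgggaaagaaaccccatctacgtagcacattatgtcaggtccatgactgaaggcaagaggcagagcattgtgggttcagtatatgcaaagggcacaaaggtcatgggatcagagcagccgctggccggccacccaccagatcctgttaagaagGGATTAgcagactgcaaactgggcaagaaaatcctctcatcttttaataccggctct

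Samd7: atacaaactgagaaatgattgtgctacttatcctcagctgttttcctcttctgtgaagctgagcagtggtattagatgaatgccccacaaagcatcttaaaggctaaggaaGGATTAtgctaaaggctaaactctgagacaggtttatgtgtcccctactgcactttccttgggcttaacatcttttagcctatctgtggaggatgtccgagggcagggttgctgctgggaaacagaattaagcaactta

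The matched letters began 74 bases before the start in Syne3, 152 in Nxnl2, 57 in Guca1a and 139 in Samd7. A match describes these letters in this window and is no evidence of binding.

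Cilium and transport genes moved less than outer segment genes. Of 24 tested 15 rose and 3 fell (median 0.35). Unc119, a lipid-binding carrier of transducin, went from 478, 515 and 508 CPM in saline to 910.4, 1283 and 1529 CPM in GSK (1.31 ± 0.15). Mak, a kinase that limits the length of the axoneme, was at 92.8, 84.5 and 101 CPM in saline and 228, 230.3 and 184 CPM in GSK (1.21 ± 0.09, adjusted p = 4.25e-06), around its wild-type saline mean of 194 CPM. Fam161a, a microtubule-binding protein of the connecting cilium, rose by 1.09 ± 0.17 and the BBSome subunit Bbs9 by 0.83 ± 0.15. The general transport motor Kif3a fell by 0.29 ± 0.06 on the log2 scale, with all GSK libraries below the other 8, one of the 3 falls that inner retina scaling ended.

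At the photoreceptor ribbon synapse 13 of 19 genes rose and 2 fell (median 0.72). Cplx4, a complexin of the ribbon terminal, stood at 180.1, 158 and 186 CPM in saline and 353, 421 and 486 CPM in GSK (1.27 ± 0.10, adjusted p = 9.20e-06). Cabp4, which tunes the presynaptic calcium channel, rose by 1.19 ± 0.16, and Egflam, the pikachurin that aligns rods with bipolar dendrites, by 1.16 ± 0.10. Elfn1, an adhesion protein that joins rod terminals to bipolar receptors, went from 63.4, 55.4 and 66.6 CPM to 118, 131 and 125 CPM. The genes that fell were the active-zone scaffold Bsn (-0.43, groups overlapping) and Cplx3 (-0.23), a complexin that amacrine and bipolar cells use as well. Neither fall was called when only the rd10 libraries were fitted.

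Cone genes did not follow the rods. Of 16 tested 2 rose and 5 fell, with a median of -0.18 that turned to 0.09 under inner retina scaling, where 3 rose and 1 fell. Both risers, Grk1 and Thrb, are used outside cones or before cones mature, and whether that bears on their rise was not tested. The short-wave opsin Opn1sw stood at 179, 346 and 369.9 CPM in saline and 162, 398 and 313 CPM in GSK, and the groups overlapped (-0.04 ± 0.36, adjusted p = 0.955). Opn1mw, the middle-wave opsin, overlapped too, at 122, 130.1 and 124 CPM and 108, 177 and 216 CPM. Ccdc136 fell from 149, 154 and 162 CPM to 85.7, 105 and 121 CPM (-0.58 ± 0.10), and Cngb3, the beta subunit of the cone channel, from 34.2, 27.2 and 34.7 CPM to 18.9, 23.9 and 23.8 CPM (-0.53 ± 0.11), a call that inner retina scaling ended. The median cone gene stood at 90.4%, 81.4% and 91.1% of the wild-type level in the saline retinas and 59.0%, 78.4% and 85.8% in the GSK retinas, so replicate 1 was the lowest of all 6.

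**Figure D2:**
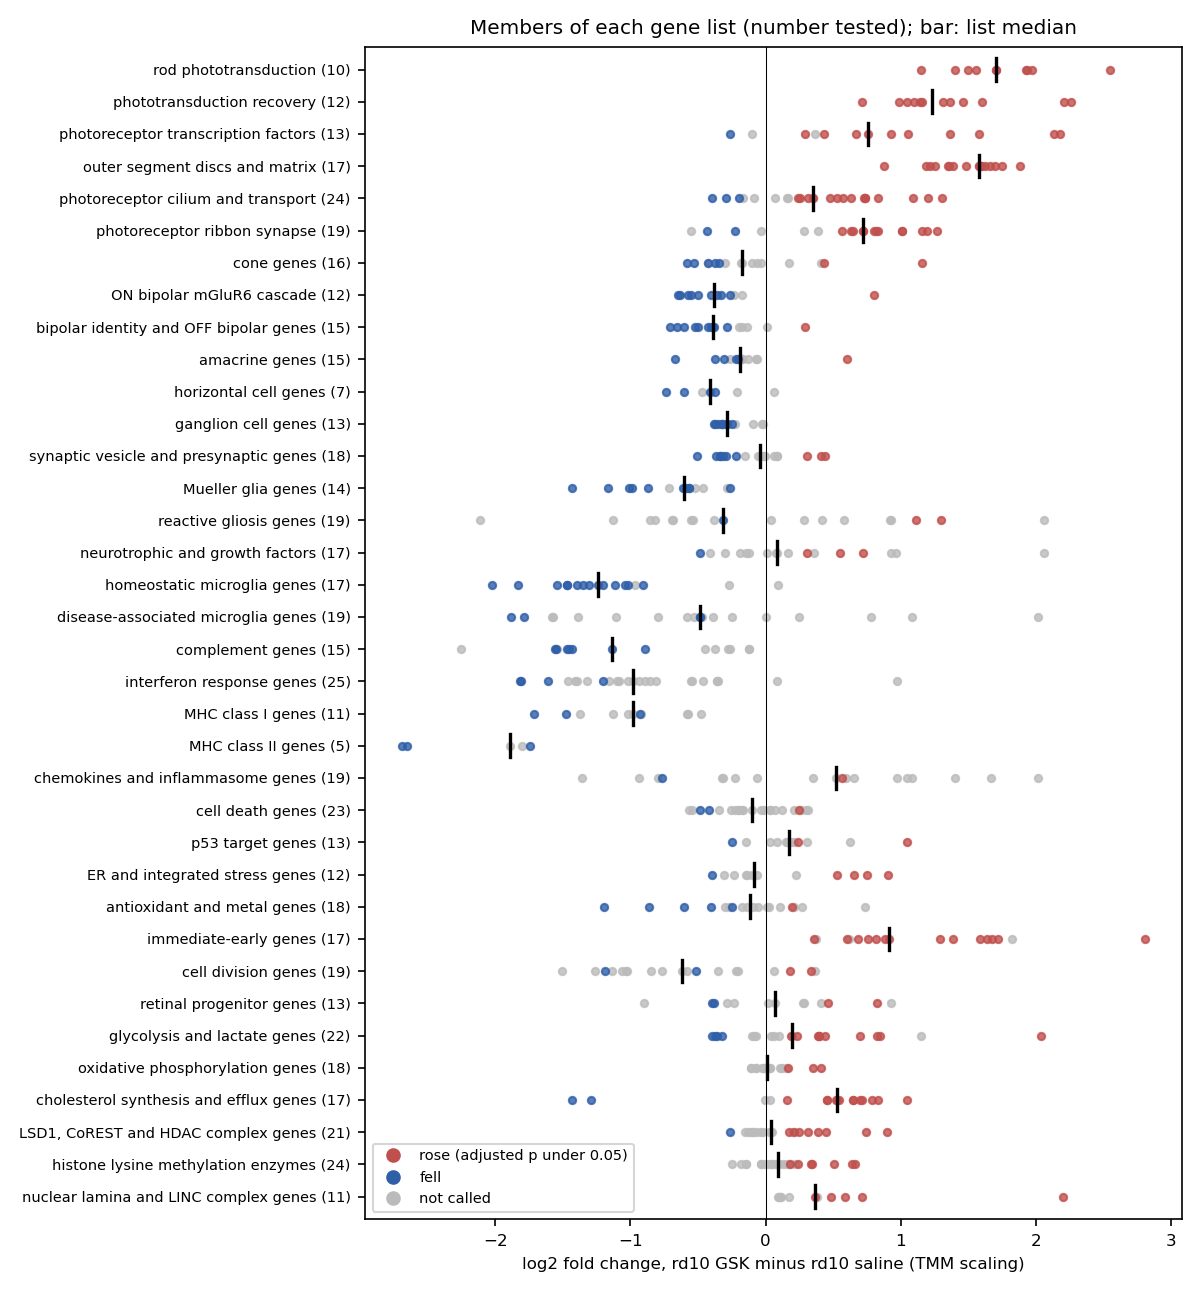
Log2 fold change of GSK over saline in rd10 (TMM scaling, x axis) for every tested member of the gene lists named (y axis, number tested in brackets), coloured red where it rose, blue where it fell and grey where it was not called, with a bar at the list median. All dots of rod phototransduction lie at or above 1.15, those of homeostatic microglia reach -2.02, and the grey dots of the chemokine list spread from -1.36 to 2.02.

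Bipolar cell genes were lower in GSK retinas in both lists read. In the mGluR6 cascade, by which ON bipolar cells invert the photoreceptor signal, 9 of 12 genes fell and 1 rose (median -0.38). Gpr179, the orphan receptor that anchors the cascade, stood at 331, 289 and 343 CPM in saline and 190, 194 and 230.1 CPM in GSK (-0.65 ± 0.08, adjusted p = 0.000176). Trpm1, the cation channel at its end, fell by 0.64 ± 0.08 on the log2 scale and the proteoglycan Nyx by 0.58 ± 0.11. The exception was Cacna1s, a calcium channel subunit shared with skeletal muscle, at 21.9, 20.5 and 22.2 CPM in saline and 38.5, 35.6 and 38.8 CPM in GSK (0.81 ± 0.07, adjusted p = 1.22e-05). Its GSK libraries lay above the other 8. Of 15 bipolar identity genes 10 fell and 1 rose (median -0.39). Cabp5, a calcium-binding protein of bipolar cells, went from 132, 143 and 134 CPM to 83.6, 80.0 and 87.1 CPM (-0.70 ± 0.05, adjusted p = 7.31e-06), and the GSK libraries lay below all 8 others. Isl1, the homeobox gene of ON bipolar cells, fell by 0.66 ± 0.05. Under inner retina scaling the 2 medians were -0.11 and -0.12, and 4 and 5 genes fell, to be read against 0.28 for all genes. Both lists are among those that set that scale.

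Of 15 amacrine genes 5 fell and 1 rose, with a median of -0.19 that became 0.08 under inner retina scaling, which this list helps to set. The count that fell was 3 without rd10 GSK replicate 1 and 11 without replicate 3. Slc17a8, the glutamate transporter VGLUT3 of one amacrine type, fell from 48.7, 40.2 and 43.4 CPM to 33.3, 25.8 and 24.01 CPM (-0.67 ± 0.12, adjusted p = 0.00123). Th, the dopamine-synthesising enzyme, was the riser, at 3.93, 4.48 and 3.73 CPM in saline and 5.40, 6.41 and 6.62 CPM in GSK (0.60 ± 0.13), above the other 8 libraries. In horizontal cells 4 of 7 genes fell and the other 3 were not called (median -0.41, and -0.14 under inner retina scaling, where 1 fell). Lhx1, a homeobox gene of horizontal cells, went from 17.8, 15.6 and 16.1 CPM to 9.06, 9.87 and 10.8 CPM (-0.73 ± 0.09). The falls of the connexin Gja10 (-0.61) and of Prox1 (-0.37), a homeobox gene of several inner cell types, were each lost in several alternatives.

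Ganglion cell genes fell in 9 of 13 cases and the other 4 were not called (median -0.29). Inner retina scaling gave a median of -0.02 and ended all 9 calls, but this list is among those that set that scale. The neurofilament genes Nefm and Nefh, which build the axonal cytoskeleton, fell by 0.38 ± 0.05 and 0.38 ± 0.05 on the log2 scale. They were also the ganglion cell genes that fell with GSK in wild type (-0.41 and -0.61). Slc17a6, the vesicular glutamate transporter of ganglion cells, fell by 0.32 ± 0.06. Of 18 general presynaptic genes 7 fell and 3 rose, the median of -0.04 becoming 0.23 with inner retina scaling, where 9 rose and 1 fell. Vamp1, a vesicle fusion protein, fell by 0.51 ± 0.05, whereas the vesicle protein Sv2b, lower in rd10 saline than in wild type, rose (0.41 ± 0.09).

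Müller glia genes were lower in GSK retinas. Of 14 tested 10 fell and the other 4 were not called (median -0.60, and -0.33 under inner retina scaling). Gpr37, a receptor for prosaposin-type ligands, was at 424, 374 and 394 CPM in saline and 176, 172 and 185 CPM in GSK, with a wild-type saline mean of 238 CPM (-1.16 ± 0.07, adjusted p = 1.30e-06). All 3 GSK retinas lay below the other 8. Apoe, the lipid carrier that glia secrete, went from 2101, 3069 and 2341 CPM to 944, 848 and 997 CPM (-1.43 ± 0.12, adjusted p = 1.62e-05). Aqp4, the water channel of Müller endfeet, stood at 308, 241 and 293 CPM in saline and 141, 139 and 137 CPM in GSK (-1.01 ± 0.08), the latter close to its wild-type saline mean of 143 CPM. Car14, a membrane carbonic anhydrase, fell by 0.99 ± 0.18. Glul, the glutamine synthetase that clears glutamate, did not pass: saline was at 2376, 2528 and 2469 CPM and GSK at 942, 1611 and 2788 CPM, from the lowest to the highest of the 6. The median member was at 183%, 165% and 167% of the wild-type level in saline retinas and 106%, 97.4% and 111% in GSK retinas.

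Among antioxidant and metal-handling genes 5 of 18 fell and 1 rose, the median being -0.11 with TMM and 0.16 with inner retina scaling. Prdx6, a peroxiredoxin found in Müller glia, fell from 319.8, 320 and 273 CPM in saline to 133, 139.7 and 127 CPM in GSK (-1.19 ± 0.07, adjusted p = 1.32e-06). The quinone reductase Nqo1 fell by 0.86 ± 0.16 and the ferritin light chain Ftl1 by 0.60 ± 0.10. The metallothionein Mt1, a zinc-binding stress protein, overlapped between groups (152, 131 and 122.6 CPM and 188, 155 and 126 CPM).

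Reactive gliosis genes had no common direction, and the GSK retinas differed widely among themselves. Of 19 tested 2 rose and 1 fell (median -0.31). The median member stood at 1073%, 956% and 763% of the wild-type level in saline retinas, and at 1778%, 706% and 351% in GSK retinas. GSK replicate 1 was thus above all saline retinas and replicate 3 below them. Without replicate 1, 1 gene rose and 7 fell, and without replicate 3, 8 rose and 3 fell. Cebpd, an acute-phase transcription factor, was at 78.8, 76.7 and 61.4 CPM in saline and 246, 188 and 98.5 CPM in GSK (1.30 ± 0.30, adjusted p = 0.0118), above the other 8 libraries in each GSK retina. Gfap, the intermediate filament that marks reactive Müller glia, was at 479.8, 471 and 368 CPM and 294, 324 and 128 CPM, lower in each GSK retina but not called (-0.82 ± 0.30, adjusted p = 0.0725). Socs3, a feedback inhibitor of cytokine signalling, spanned 112, 63.3 and 21.2 CPM in GSK around 40.1, 35.7 and 28.4 CPM in saline. Lif, the cytokine that photoreceptor injury induces in Müller glia, reached 43.3, 6.597 and 4.44 CPM in GSK against 5.85, 3.23 and 3.98 CPM in saline (adjusted p = 0.0940). The rise of the endothelin receptor Ednrb (1.11 ± 0.36) was lost in 15 of 22 alternatives, and Tnc, the matrix protein tenascin C, fell by 0.31 ± 0.07, a call lost under inner retina scaling (-0.04, adjusted p = 0.707) and without the lens-bearing libraries.

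Among 17 growth and survival factors 3 rose and 1 fell (median 0.08). Vegfa, the endothelial growth factor, stood at 162, 157 and 172 CPM in saline and 198, 191 and 219 CPM in GSK (0.31 ± 0.07). Igf1, an insulin-like factor that microglia make, fell from 64.5, 59.5 and 64.9 CPM to 44.0, 42.4 and 48.5 CPM (-0.49 ± 0.07, adjusted p = 0.000322). The rises of Pgf and Egf were lost in 12 and 16 of 22 alternatives. Fgf2, a survival factor for photoreceptors, overlapped between groups, at 38.2, 20.5 and 35.4 CPM in saline and 85.1, 61.3 and 33.1 CPM in GSK.

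Homeostatic microglia genes fell in 14 of 17 cases and the other 3 were not called (median -1.24, and -0.95 under inner retina scaling). Trem2, a lipid-sensing receptor of microglia, stood at 13.6, 16.4 and 16.4 CPM in saline and 6.20, 3.74 and 3.03 CPM in GSK (-1.83 ± 0.22, adjusted p = 0.000138). The groups were well apart, and the GSK libraries remained above the wild-type saline mean of 1.55 CPM. Fcrls, an Fc receptor-like protein specific to mouse microglia, went from 38.8, 32.5 and 34.9 CPM to 15.8, 7.01 and 3.12 CPM (-2.02 ± 0.47). Tyrobp, the signalling adaptor of Trem2, fell by 1.54 ± 0.39 and the orphan receptor Gpr34 by 1.47 ± 0.27. The calls of Fcrls and Tyrobp were lost when only the rd10 libraries were fitted and without the lens-bearing libraries, and that of Tyrobp also without rd10 GSK replicate 2. P2ry12, the ADP receptor of resting microglia, was at 8.43, 9.65 and 10.4 CPM in saline and 3.08, 4.15 and 6.62 CPM in GSK (-1.04 ± 0.22). The median member stood at 435%, 479% and 554% of the wild-type level in saline retinas and 318%, 233% and 153% in GSK retinas. Fitting only the rd10 libraries left 8 falls, and leaving out the lens-bearing libraries left 9.

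Of 19 disease-associated microglia genes 4 fell and the other 15 were not called (median -0.49), where 15.2% of all tested genes fell. Cst7, a cystatin induced in activated microglia, went from 4.72, 4.75 and 6.25 CPM in saline to 2.04, 1.98 and 0.214 CPM in GSK (-1.89 ± 0.53, adjusted p = 0.0222), and osteopontin, Spp1, from 112, 82.5 and 96.3 CPM to 52.7, 19.2 and 12.0 CPM (-1.79 ± 0.47). GSK replicate 1 stayed closest to saline in Spp1. Its call was lost in 5 of 22 alternatives, among them without rd10 saline replicate 1 or 3 and without rd10 GSK replicate 2, and that of Cst7 without rd10 saline replicate 3 and when only the rd10 libraries were fitted. Gpnmb, a glycoprotein of lipid-laden phagocytes, was at 108, 127 and 126 CPM in saline but at 98.2, 13.5 and 7.95 CPM in GSK and did not pass (adjusted p = 0.194). Lgals3, the galectin of phagocytic microglia, was at 52.7, 16.9 and 2.78 CPM in GSK around a saline level of 19.9, 19.98 and 21.4 CPM. Without rd10 GSK replicate 1, 13 of the 19 fell, and without replicate 3, 2 rose and 5 fell.

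In the complement list 7 of 15 genes fell and the other 8 were not called (median -1.14). C1qc, a chain of the C1q molecule that starts the classical pathway, stood at 70.8, 85.3 and 86.0 CPM in saline and 36.2, 29.7 and 16.4 CPM in GSK (-1.56 ± 0.24, adjusted p = 0.00139). The chains C1qa (-1.47 ± 0.24) and C1qb (-1.46 ± 0.28) fell by much the same amount. C4b, the next component of that pathway, went from 231, 298 and 315 CPM to 119, 113 and 56.9 CPM (-1.55 ± 0.26). C3, the component on which the pathways meet, was at 147, 146 and 206 CPM in saline and 77.0, 21.2 and 5.55 CPM in GSK, apart in every library but with a spread too wide for a call (-2.26 ± 0.75, adjusted p = 0.0568).

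Few interferon response genes were called, and their median level was lowest in GSK replicate 3. Of 25 interferon response genes 4 fell and the other 21 were not called by edgeR's test (median -0.98), where 15.2% of all tested genes fell. The GSK libraries lay below all saline libraries in 15 of the 25, and in 20.2% of all tested genes. As a share of wild-type saline the median member was at 1965%, 2172% and 2490.4% in saline retinas and 1133%, 1128% and 252% in GSK retinas. Irf7, the factor that amplifies interferon transcription, stood at 70.1, 111 and 104 CPM in saline and 51.8, 53.7 and 18.1 CPM in GSK (-1.21 ± 0.37, adjusted p = 0.0405). Oas1a, a sensor of double-stranded RNA, went from 5.89, 8.91 and 9.17 CPM to 3.89, 2.58 and 0.299 CPM (-1.81 ± 0.59, adjusted p = 0.0441). Each of these calls was lost in at least 14 of 22 alternatives. All 4 calls were lost when only the rd10 libraries were fitted and without rd10 saline replicate 2 or 3, whereas DESeq2 called 8 falls and limma-voom 7. Without rd10 GSK replicate 1, 8 fell, and without replicate 3, 13 fell and 2 rose.

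Of 11 MHC class I genes 3 fell (median -0.98), where 15.2% of all tested genes fell. B2m, the invariant light chain, was at 274, 416 and 396 CPM in saline and 156, 139 and 35.2 CPM in GSK (-1.72 ± 0.48, edgeR adjusted p = 0.0301). H2-K1, a classical heavy chain, fell by 1.48 ± 0.37. In MHC class II, the markers of antigen-presenting cells, 3 of 5 genes fell (median -1.89). H2-Eb1 was at 3.41, 11.9 and 14.0 CPM in saline and 3.04, 0.692 and 0.812 CPM in GSK (-2.66 ± 0.65, adjusted p = 0.0142), so the lowest saline retina and the highest GSK retina, both replicates 1, nearly met. All of these calls were lost when only the rd10 libraries were fitted, the class I calls without rd10 saline replicate 3, and that of H2-Eb1 without rd10 GSK replicate 3. Without rd10 GSK replicate 1, 9 class I and 5 class II genes fell, and without replicate 3, 7 and 1 did.

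An interferon response element, GAAA followed by any 2 bases and GAAA, which interferon regulatory factors bind, was searched in the same promoters on both strands. It was found in 18 of 196 matched promoters of genes that fell by 2-fold or more (9.18%), in 1.80% of risen genes and in 2.61% of all matched promoters. The same 196 promoters also held the AP-1 letters in 7.14% and TGCTGA in 21.9%, against 2.97% and 13% of all, so the higher share was not limited to the interferon element. The median GC content of those 196 promoters was 53.2%, against 59.6% for all, so base composition differed as well, and its part in that share was not tested. The promoters of the 3 named genes with the largest falls among those holding a match are shown, a choice made after the data were seen, with the matched letters in capitals on the gene's strand. They lie at chr5:120907526-120907775 (minus strand), chr5:104434861-104435110 (plus) and chr2:122147437-122147686 (plus) of GRCm38.p6.

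Oas1a: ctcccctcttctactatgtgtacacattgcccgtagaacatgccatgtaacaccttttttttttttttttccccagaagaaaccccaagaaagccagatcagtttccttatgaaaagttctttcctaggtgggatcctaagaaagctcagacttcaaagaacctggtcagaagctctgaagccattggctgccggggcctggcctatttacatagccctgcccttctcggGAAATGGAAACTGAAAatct

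Spp1: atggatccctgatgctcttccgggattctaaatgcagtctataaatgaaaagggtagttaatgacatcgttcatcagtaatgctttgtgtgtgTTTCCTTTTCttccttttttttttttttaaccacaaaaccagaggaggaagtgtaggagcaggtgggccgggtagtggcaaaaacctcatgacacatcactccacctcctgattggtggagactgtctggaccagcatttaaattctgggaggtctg

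B2m: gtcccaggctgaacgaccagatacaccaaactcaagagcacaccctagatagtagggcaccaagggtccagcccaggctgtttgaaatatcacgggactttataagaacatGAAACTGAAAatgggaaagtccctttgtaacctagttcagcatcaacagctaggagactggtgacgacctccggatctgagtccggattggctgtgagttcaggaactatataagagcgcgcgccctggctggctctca

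In Oas1a 2 matches overlapped, beginning 20 and 14 bases before the start, and in B2m the match began 139 bases before it. In Spp1 the match read on the opposite strand, 157 bases before the start.

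Chemokine and inflammasome genes differed widely among the GSK retinas. Of 19 tested 1 rose and 1 fell (median 0.52, but -0.23 without rd10 GSK replicate 1). Ccl2, a monocyte attractant, was at 2.01, 1.80 and 3.69 CPM in saline and 20.7, 3.00 and 0.128 CPM in GSK, that is both above and below saline (1.67 ± 1.16, adjusted p = 0.316). Cxcl10, an interferon-induced attractant of T cells, likewise ran over 29.1, 19.9 and 1.20 CPM in GSK around 7.20, 7.06 and 11.3 CPM in saline. Nfkbia, the inhibitor of NF-kB that its own pathway induces, rose from 24.1, 28.7 and 26.7 CPM to 50.02, 34.8 and 32.9 CPM (0.57 ± 0.14, adjusted p = 0.00917) and lay above the other 8 libraries. Cxcl16, a membrane-bound chemokine, fell by 0.76 ± 0.21, a call lost in 6 of 22 alternatives, among them inner retina scaling and without rd10 saline replicate 1 or 2 or rd10 GSK replicate 2. The median member stood at 476%, 521% and 551% of the wild-type level in saline retinas and 1472%, 649% and 149.6% in GSK retinas. Without rd10 GSK replicate 1, 6 fell and 1 rose, and without replicate 3, 7 rose and 2 fell.

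**Figure D3:**
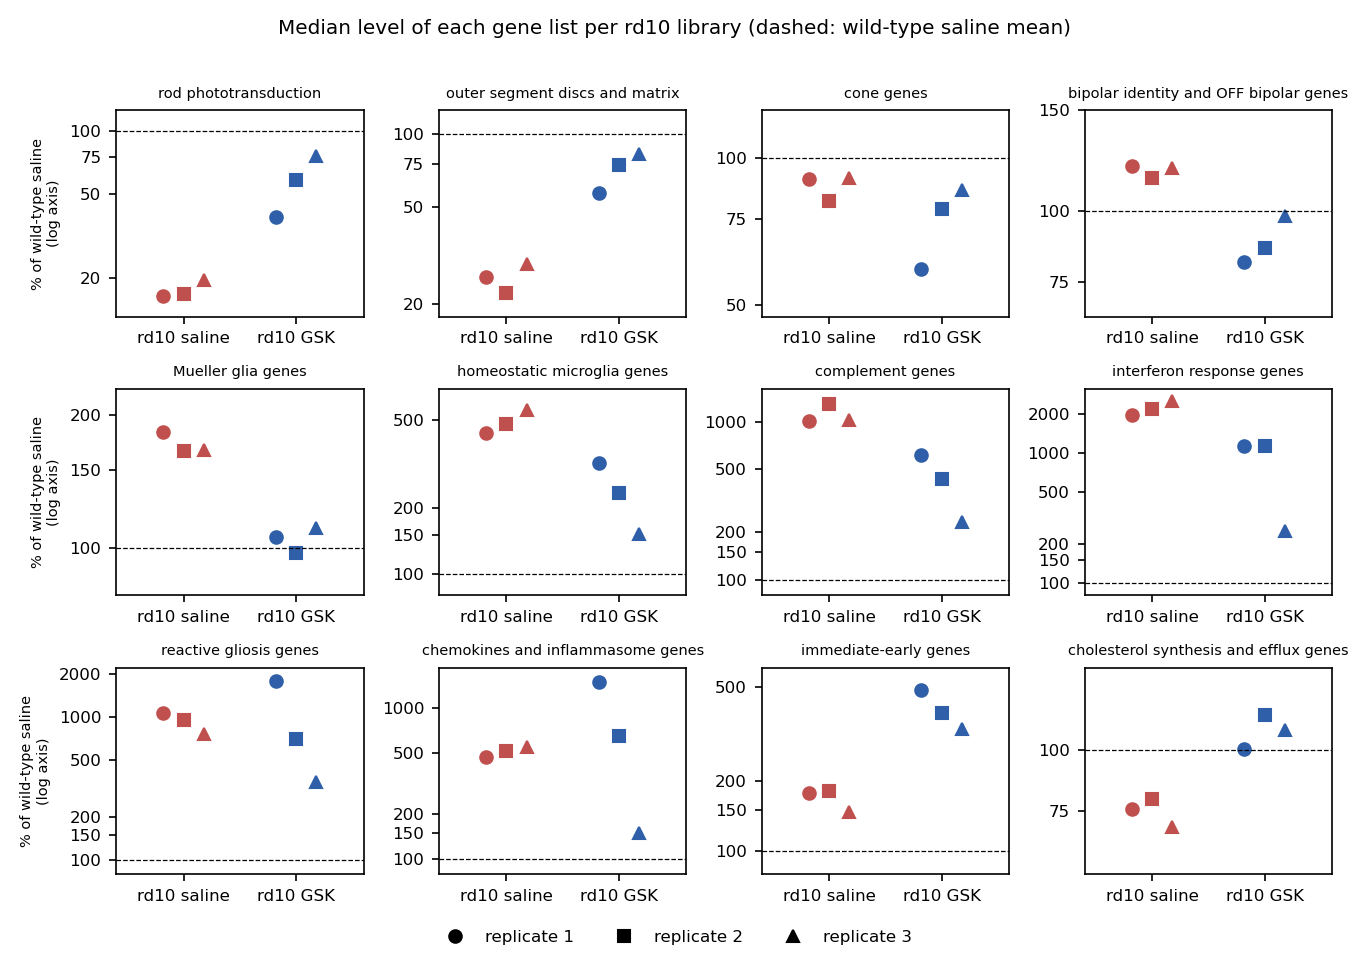
Median level of each gene list relative to wild-type saline, in percent (log axis) with wild-type saline at the dashed line, in each rd10 retina, red for saline and blue for GSK, with circles, squares and triangles for replicates 1, 2 and 3. The rod list of the 3 GSK retinas lies at 38.9%, 58.3% and 75.7%, above all saline retinas, whereas the chemokine list of the same retinas runs from 1472% to 150%, to both sides of saline.

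Immediate-early genes, which neurons and glia switch on within minutes of a stimulus, rose in 14 of 17 cases, the other 3 not being called (median 0.91). In all 14 the GSK libraries lay above each of the 8 other libraries, as in 4.47% of all tested genes. Nr4a1, an orphan nuclear receptor, stood at 47.1, 43.8 and 39.3 CPM in saline and 133, 135 and 124 CPM in GSK (1.59 ± 0.07, adjusted p = 4.15e-07). Npas4, a factor induced by neuronal activity, went from 2.096, 1.98 and 1.87 CPM to 5.67, 5.91 and 7.48 CPM (1.68 ± 0.21, adjusted p = 0.000141), and its wild-type saline mean was 2.31 CPM. In both genes the GSK retinas were close together. Junb (52.4, 48.4 and 40.1 CPM and 210.1, 162 and 91.4 CPM, 1.72 ± 0.26) and Fosb (7.20, 5.08 and 6.61 CPM and 27.9, 19.2 and 11.7 CPM, 1.64 ± 0.30), subunits of AP-1, were highest in GSK replicate 1. Fosl1, a further AP-1 subunit, was at 0.961, 1.15 and 0.730 CPM in saline and 13.1, 5.07 and 1.67 CPM in GSK (2.81 ± 0.66), a call lost with limma-voom and when only the rd10 libraries were fitted. Egr1, a zinc-finger factor of the same class, did not pass (118, 105 and 89.3 CPM and 184, 111 and 110.1 CPM, adjusted p = 0.276). The median member stood at 177%, 180.4% and 148% of the wild-type level in saline retinas and 486%, 390.2% and 333% in GSK retinas.

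Of 12 genes of endoplasmic reticulum and integrated stress 4 rose and 1 fell, with a median of -0.08 (0.19 with inner retina scaling). Atf4, the central factor of the integrated stress response, was at 177, 189.7 and 182 CPM in saline and 349, 339 and 342 CPM in GSK (0.91 ± 0.05, adjusted p = 1.05e-06). The GSK retinas were close together and lay above all others, wild type included. Its targets Ddit3 (0.66 ± 0.07) and Trib3 (0.75 ± 0.16) and the phosphatase subunit Ppp1r15a (0.53 ± 0.09) rose too, whereas the targets Chac1 (-0.23 ± 0.20) and Asns (-0.31 ± 0.15) were not called. Hspa5, the chaperone of the unfolded protein response, was at 409, 386 and 403 CPM in saline and 429, 345 and 341 CPM in GSK (adjusted p = 0.456).

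The cell-cycle inhibitor Cdkn1a stood at 12.2, 9.05 and 10.8 CPM in saline and 21.1, 20.9 and 24.2 CPM in GSK (1.05 ± 0.11, adjusted p = 6.00e-05), above all other libraries. It was 1 of 2 rises among 13 p53 target genes, where 1 fell (median 0.17), the other being Mdm2 (0.24 ± 0.06), the ligase that degrades p53. Of 23 cell death genes 1 rose and 2 fell, with a median of -0.10 (0.17 with inner retina scaling). The calpain Capn1 fell by 0.48 ± 0.10 (adjusted p = 0.00328), a call that inner retina scaling ended, and the calls of Casp6 and Parp1 were lost in 11 and 12 of 22 alternatives. Bax, a pore-forming executor of apoptosis, did not differ beyond its spread (0.03 ± 0.09, adjusted p = 0.819).

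Of 19 cell division genes 2 rose and 2 fell (median -0.62), where 17.6% of all tested genes rose and 15.2% fell. Mki67, the marker of cycling cells, was at 9.78, 7.11 and 11.8 CPM in saline and 3.47, 6.09 and 0.598 CPM in GSK, lower in each GSK retina but not called (adjusted p = 0.0727). Mcm5, a replication helicase subunit, fell by 0.51 ± 0.14, a call lost under inner retina scaling (-0.24, edgeR adjusted p = 0.203) and without rd10 saline replicate 1. The other fall was lost in 7 of 22 alternatives, and the 2 rises in 8 and 13. Without rd10 GSK replicate 2, 7 genes fell. Of 13 retinal progenitor genes 2 rose and 2 fell (median 0.07): Pax6 and Lhx2, homeobox genes that mature inner retina and Müller glia keep expressing, fell by 0.38 ± 0.05 and 0.39 ± 0.09. Inner retina scaling ended both calls (-0.11, adjusted p = 0.135, and -0.12, adjusted p = 0.275), and the rises of Hes5 and Notch1 were each lost in 15 of 22 alternatives.

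Glycolysis genes rose in 10 of 22 cases and fell in 4 (median 0.19), and under inner retina scaling 16 rose. Hk2, the hexokinase of rods, stood at 130.2, 111 and 152 CPM in saline and 399, 503.8 and 711 CPM in GSK (2.04 ± 0.21, adjusted p = 0.000179). Hk1, the general hexokinase, went from 749.5, 754 and 783 CPM to 1245, 1412 and 1397 CPM (0.83 ± 0.06, adjusted p = 4.76e-06), and all GSK retinas lay above the other 8. The lactate transporters Slc16a1 (0.85 ± 0.19) and Slc16a3 (0.70 ± 0.12) rose, the former not when only the rd10 libraries were fitted. Eno1, an enolase (-0.38 ± 0.06), and Ldhb, the lactate dehydrogenase subunit of oxidative cells (-0.40 ± 0.07), fell. Of 18 oxidative phosphorylation genes 3 rose and the other 15 were not called, where 17.6% of all tested genes rose. The median was 0.01, with -0.02 under upper quartile scaling and 17 rises under inner retina scaling. Ndufa4, a respiratory chain subunit, was at 0.41 ± 0.09.

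Cholesterol synthesis genes moved together. Of 17 genes of cholesterol synthesis, uptake and efflux 13 rose and 2 fell (median 0.53). Idi1, an isomerase of the pathway, was at 7.12, 7.62 and 5.80 CPM in saline and 10.6, 12.8 and 13.2 CPM in GSK, without overlap (0.83 ± 0.12, edgeR adjusted p = 0.000322). Insig1, a sterol sensor that restrains the pathway, rose by 0.78 ± 0.13, and the demethylase Cyp51 by 0.71 ± 0.07, with all GSK retinas above the other 8. The fallers both act in lipid export: the transporter Abca1 went from 199, 152 and 209.8 CPM to 76.7, 67.6 and 84.7 CPM (-1.29 ± 0.12, adjusted p = 5.42e-05), and Apoe is given above with the Müller glia. The median member stood at 75.5%, 79.2% and 69.5% of the wild-type level in saline retinas and 100.4%, 118% and 109.9% in GSK retinas, which did not overlap.

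Of 11 genes of the nuclear lamina and its links to the cytoskeleton 5 rose and the other 6 were not called (median 0.37, and 10 rises with inner retina scaling). Syne3, which encodes nesprin-3 of the outer nuclear membrane, stood at 25.9, 18.2 and 27.6 CPM in saline and 80.8, 107 and 142 CPM in GSK (2.20 ± 0.22, adjusted p = 0.000147). Its wild-type saline mean of 54.4 CPM lay between the groups. Lmnb1, a B-type lamin, rose by 0.71 ± 0.11, and Lbr, the lamin B receptor that tethers heterochromatin to the envelope in rods, went from 18.7, 18.9 and 18.3 CPM to 26.2, 28.7 and 29.1 CPM (0.59 ± 0.06, adjusted p = 6.12e-05).

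Among lists of tissues that a dissection can carry, the lens and skeletal muscle sums were each led by 1 GSK library. The erythroid sum was higher in each GSK retina (77.0, 48.1 and 40.7 CPM) than in saline (31.8, 37.5 and 34.9 CPM). The part of these and the other lists below in the results above was not tested. Of 15 lens genes 1 was called and the median of 6.75 became -0.98 without rd10 GSK replicate 2. Of 13 pigment epithelium genes 1, Mitf, fell, a call lost in 7 of 22 alternatives. The list summed to 171.5, 167.5 and 123.2 CPM in rd10 GSK and 59.2, 130.15 and 66.6 CPM in rd10 saline. In wild-type GSK the sums were higher, at 229.3, 282.7 and 300.1 CPM. The pigment protein Pmel was at 31.0, 5.67 and 3.46 CPM in rd10 GSK and 1.35, 3.37 and 2.35 CPM in rd10 saline. It was highest in rd10 GSK replicate 1, a library that the list sum did not single out. Skeletal muscle genes summed to 5.16, 6.27 and 39.8 CPM in GSK and 3.58, 4.20 and 3.21 CPM in saline, so replicate 3 of GSK was the highest. Of 6 erythroid genes 3 rose (median 0.72), among them Alas2, an enzyme of haem synthesis, from 1.14, 1.38 and 1.18 CPM to 4.12, 2.68 and 2.35 CPM (1.31 ± 0.27). Of 14 vascular genes 4 fell and 1 rose, with a median of -0.17 that became 0.11 under inner retina scaling. Kdr, a receptor for VEGF that retinal neurons also express, fell from 651, 552 and 617 CPM to 356, 303 and 269 CPM (-0.97 ± 0.12, adjusted p = 0.000183), and Cspg4, the NG2 proteoglycan of pericytes, fell by 0.98 ± 0.18. The endothelial markers Pecam1 (0.06 ± 0.07) and Cldn5 (-0.08 ± 0.09) were not called. Of 6 other leukocyte genes Gzmb alone fell, and the lymphocyte and granulocyte markers Cd3e, Nkg7, Ms4a1, S100a8 and S100a9 did not pass the count filter. Ccr2, which marks infiltrating monocytes, was at 4.37, 4.89 and 8.89 CPM in saline and 11.2, 0.461 and 0.0854 CPM in GSK. Of 9 mitochondrially encoded genes 1 fell, with a median of -0.11 that became 0.16 under inner retina scaling.

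Outside the lists, the largest rises with no overlap between groups included photoreceptor genes. Pdzph1, a PDZ-domain gene, stood at 25.3, 21.2 and 31.8 CPM in saline and 170.3, 225 and 237 CPM in GSK (3.01 ± 0.16, adjusted p = 3.09e-06). Reep6, a membrane-shaping protein of the rod endoplasmic reticulum, went from 161, 183 and 202 CPM to 493, 803 and 999 CPM (2.07 ± 0.22), and Fscn2, an actin bundler of photoreceptors, from 14.6, 14.5 and 17.98 CPM to 49.2, 70.8 and 112 CPM (2.29 ± 0.28). Scn4a, the skeletal muscle sodium channel, was at 5.24, 4.15 and 6.05 CPM in saline and 13.1, 36.0 and 64.9 CPM in GSK (2.88 ± 0.54). Gramd2 (2.08 ± 0.18), Ccdc180 (3.30 ± 0.45) and Apobec2 (2.05 ± 0.14), a deaminase-family gene of muscle, rose in the same range. Hist1h1c, a linker histone, rose by 2.099 ± 0.59, but the call was lost in 10 of 22 alternatives. Dhh, desert hedgehog, went from 3.41, 2.35 and 2.80 CPM to 9.13, 14.8 and 12.0 CPM (2.06 ± 0.18, adjusted p = 1.67e-05). The largest of these rises was uneven between retinas: Prss56, a protease of Müller glia that influences eye size, was at 2.49, 2.91 and 1.18 CPM in saline and 69.4, 19.0 and 3.89 CPM in GSK (3.82 ± 0.98, adjusted p = 0.0207), and leaving out any rd10 saline replicate ended the call.

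The largest falls outside the lists included genes of macrophages and microglia as well as others. Adgre1, which encodes the macrophage antigen F4/80, stood at 16.9, 18.9 and 23.8 CPM in saline and 9.21, 3.83 and 2.01 CPM in GSK (-1.97 ± 0.43, adjusted p = 0.00808), a call lost when only the rd10 libraries were fitted and without the lens-bearing libraries. Stab1, a scavenger receptor, fell by 1.55 ± 0.28, the interleukin receptor Il10ra by 1.52 ± 0.34 and the endosomal phospholipase-family gene Pld4 by 1.51 ± 0.30. The falls of Siglec1, Mpeg1 and Cd84, genes of macrophages, were lost in 15, 10 and 6 of 22 alternatives. Agt, angiotensinogen, went from 32.0, 37.3 and 27.7 CPM to 8.48, 9.00 and 11.7 CPM (-1.73 ± 0.15, adjusted p = 1.62e-05), around its wild-type saline mean of 10.3 CPM. Gna14, a G protein alpha subunit, went from 26.7, 28.01 and 23.98 CPM to 10.4, 9.27 and 5.38 CPM (-1.65 ± 0.20). Chdh, choline dehydrogenase, fell by 1.53 ± 0.22.

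A further set of genes left the range of the whole series. All 3 rd10 GSK libraries lay above each of the 8 others in 4.47% of genes, 604 of which had also risen (3.53%), and below each of them in 812 genes (4.75%), of which 653 had fallen (3.82%). Besides Samd7, Hk1, Atf4 and the immediate-early genes, the former include Sp6, a zinc-finger transcription factor of the Sp family, at 17.0 and 17.3 CPM in wild-type saline, 10.9, 8.21 and 9.98 CPM in rd10 saline and 50.5, 47.3 and 32.8 CPM in rd10 GSK (2.17 ± 0.17, adjusted p = 1.46e-05). Lad1, ladinin, a filament-anchoring protein, was at 0.814 and 1.45 CPM in wild-type saline, 9.82, 7.75 and 8.08 CPM in rd10 saline and 47.6, 39.7 and 20.7 CPM in rd10 GSK (2.07 ± 0.28). Below the range lay Slitrk2, a synaptic adhesion protein, at 68.2, 59.3 and 69.2 CPM in rd10 saline, 29.3, 31.6 and 37.2 CPM in rd10 GSK and 50.9 and 52.1 CPM in wild-type saline (-1.01 ± 0.09, adjusted p = 1.75e-05). Lrrc66 (-1.03 ± 0.09) and Aif1l (-1.01 ± 0.13), an actin-binding relative of the microglial gene Aif1, lay below it too.

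The same drug contrast in wild type called fewer genes. Of 17099 tested, 91 changed (0.532%), 76 upward (0.444%) and 15 downward (0.0877%), while 1535 had an unadjusted p under 0.05. Wild-type saline had 2 libraries, and 11 rises and 1 fall were called without replicate 1 of them, and 16 and 1 without replicate 2. With only the wild-type libraries in the fit 573 rose and 343 fell. Both drug contrasts share no library. Of the 91 genes 63 had changed the same way in rd10 (51 rose and 12 fell), which is 69.2% of the wild-type calls and 1.12% of the rd10 calls. Syne3 was among them, rising by 1.49 ± 0.24 in wild type (adjusted p = 0.0382). Gabre, the epsilon subunit of the GABA-A receptor, was at 0.526 and 0.922 CPM in wild-type saline and 3.56, 3.15 and 3.85 CPM in wild-type GSK, and at 0.830, 0.692 and 1.06 CPM and 5.40, 4.43 and 3.84 CPM in the rd10 groups (2.39 ± 0.23 in rd10 and 2.26 ± 0.28 in wild type). Cox6a2, the muscle isoform of a cytochrome oxidase subunit, rose from 0.218, 0.0462 and 0.284 CPM to 1.31, 1.01 and 1.75 CPM in rd10 and from 0.191 and 0.132 CPM to 1.70, 1.35 and 1.605 CPM in wild type. Atp10b, a phospholipid flippase, was at 0 in both wild-type saline libraries and at 0.0437, 0 and 0.0406 CPM in rd10 saline, against 2.95, 2.48 and 2.52 CPM in wild-type GSK and 1.66, 2.21 and 3.42 CPM in rd10 GSK. The genes that fell in both genotypes include Pvalb, the calcium buffer parvalbumin (-1.23 ± 0.13 in rd10 and -0.85 ± 0.14 in wild type), Sparcl1, the matrix protein hevin (-0.45 ± 0.05 and -0.35 ± 0.06), and Limk1, a kinase of cofilin (-0.41 ± 0.06 and -0.39 ± 0.07), whose rd10 call inner retina scaling ended (-0.13, adjusted p = 0.172).

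**Figure D4:**
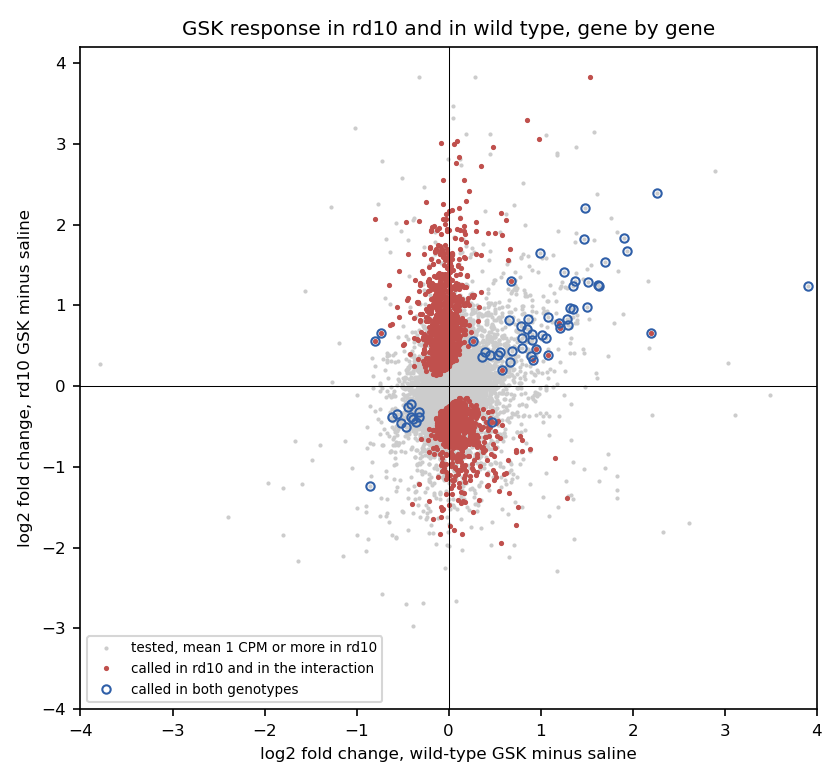
Log2 fold change with GSK in wild type (x axis) against rd10 (y axis) for tested genes with a mean of at least 1 CPM in the rd10 libraries (grey), those called in rd10 and in the interaction (red) and those called in both genotypes (blue circles, 63 of 66 drawn); 26 genes lie outside the axes. Most circles lie in the upper right and lower left, and most red points lie along the y axis, near 0 in wild type.

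Whether the response differed between genotypes was tested as the interaction of genotype and treatment. It called 2131 genes (12.5%), 1280 with a higher response in rd10 (7.49%) and 851 with a lower one (4.98%), and 2031 of the 5621 rd10 calls (36.1%) were among them. A higher or lower response is a log2 change in rd10 above or below that in wild type, so a larger fall counts as lower. The interaction called 377 and 147 without the lens-bearing libraries, 575 and 289 without wild-type saline replicate 1, and 645 and 315 without replicate 2. All 10 rod phototransduction genes and all 17 outer segment genes had a higher response in rd10, Gnat1 by 2.15 ± 0.30 (edgeR adjusted p = 0.00229), as did 11 immediate-early genes, such as Npas4 (1.83 ± 0.31). Of the cholesterol genes 12 had a higher response, such as Idi1 (0.97 ± 0.17), and 2 a lower one. Lower responses were found for 7 Müller glia genes, such as Gpr37 (-1.23 ± 0.10), for 7 bipolar identity genes, such as Cabp5 (-0.76 ± 0.08), and for 5 homeostatic microglia genes, such as Trem2 (-1.74 ± 0.38).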

How the data were processed

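Reads were aligned with HISAT2 2.1.0 and counted per gene with HTSeq, per the submitters' processing notes, which name the builds NCBIM37 and mm9. No source used here gives the annotation, the HTSeq version or the strand setting, so reads of overlapping antisense genes may not be told apart. The authors deposited raw counts for 37991 Ensembl identifiers in 11 libraries, 32919 of which were named from the GENCODE table, and the unnamed 5072 held 0.627% of counts. Totals ran from 19657030 to 28053367 counts. A 4-group model of all 11 libraries was fitted in edgeR 4.0.16 (R 4.3.3) with TMM scaling, filterByExpr (minimum count 10, minimum total 15) and the robust quasi-likelihood test, with Benjamini-Hochberg adjustment over 17099 genes and a threshold of 0.05. The procedure was checked on simulated counts, where DESeq2 was exempted from the limit on false calls set for the other fits.

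Replicate numbers were not treated as pairs, since each library came from a separate animal. Deviations of same-numbered rd10 libraries from their group means correlated at -0.157, -0.117 and -0.0925, and those of other pairs at 0.000369 to 0.111. Deviations within a group are not independent, so these values cannot settle whether same-numbered animals shared a litter or day. Alternatives were DESeq2 1.42.0, limma 3.58.1 with voom, other filters and scalings, a replicate block, an Xist term, subsets of libraries and each library left out, 22 for the rd10 contrast. The 43 gene lists, 662 entries matched and 7 not, were chosen with earlier results of these data known. List levels are the median over members of the percentage of the wild-type saline mean, with 0.1 CPM added. Named genes are Kdm1a, Hdac1 and Pde6b, up to 4 called members per list with the largest changes (mean of at least 1 CPM), 12 genes per direction outside the lists without overlap (mean of at least 5 CPM), and 5 per direction in each further set. Others (such as Crx, Gfap, Lif, Nr4a1, Ccl2 and the cone opsins) were named for their role after their values were seen. Promoter letters come from RefSeq (GRCm38.p6), and shares are given for sets with at least 80% of genes matched. Some genes that the naming rule picked are not reported here.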

Additional observations from a re-analysis of the deposited data

Results flagged for a closer look

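The response to GSK differed between rd10 and wild type by the interaction of genotype and treatment in edgeR's quasi-likelihood model (Benjamini-Hochberg adjusted p under 0.05): 1280 genes had a higher response in rd10 and 851 a lower one. Among the named genes high log2 interactions were those of Pdzph1 (3.10), Lad1 (2.87), Ccdc180 (2.44) and Sh2d1a (2.37), the last encoding an adaptor of SLAM receptors. Low ones were those of Cfi, which encodes complement factor I (-2.05), Abca1 (-1.84), C1qc (-1.82), Agt (-1.75) and Trem2 (-1.74). These values also hold the wild-type change. In rd10 alone Cfi changed by -1.2 to -0.575 and Abca1 by -1.41 to -1.02 over the 22 alternatives. The response of Cfi in rd10 was called in edgeR's test but not in 13 of 22 alternatives.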

How the results depend on the processing

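For rd10 GSK against saline, 7830 genes rose and 563 fell with inner retina scaling, 1951 and 1637 with only the rd10 libraries, and 1582 fell without the lens-bearing libraries. Leaving out each library gave 2501 to 3294 rises and 1858 to 3052 falls. A replicate block gave 2884 and 2520, though no pairing by number is known, and the interaction with that block gave 1169 higher and 697 lower responses. In wild type the rises and falls numbered 146 and 42 with DESeq2, 573 and 343 with only the wild-type libraries, 33 and 5 with the replicate block, 46 and 8 with an Xist term, and 11 and 1 without the lens-bearing libraries. Leaving out each library gave 11 to 150 rises and 1 to 32 falls in wild type, and 575 to 1732 higher and 289 to 1407 lower responses in the interaction. The interaction called 4086 and 270 genes with inner retina scaling and 377 and 147 without the lens-bearing libraries. Signs turned under inner retina scaling for the medians of the cone (0.094), amacrine (0.081), presynaptic (0.23), cell death (0.17), ER stress (0.19), antioxidant (0.16), vascular (0.11) and mitochondrially encoded (0.16) lists and for Hdac1 (0.0116), mt-Nd2 (0.0172) and Zmat3 (0.0257), a scaling that moves the median of all genes to 0.28. The lens median was 7.345 without rd10 GSK replicate 1 and turned to -0.99 without the lens-bearing libraries and to -0.985 without rd10 GSK replicate 2. The cause of the other shifts was not tested, and the amacrine list is among those that set inner retina scaling. Where 1 wild-type saline library remained, it was assumed to vary like the other groups. Depth limits genes near or under 1 CPM, such as Atp10b and Cox6a2 in saline.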
